A study of Mus musculus with 6 samples.

Results

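The genes described here encode the collagen IV, laminin and nidogen chains of the basement membrane. They are *Col4a1*, *Col4a2*, *Col4a5*, *Col4a6*, *Lama2*, *Lama4*, *Lama5*, *Lamb1*, *Lamc1* and *Nid1*, 10 of 19069 genes listed on any plate. They were chosen by name, with earlier results of these data known. A basement membrane is a thin sheet of matrix beneath epithelium and around blood vessels, muscle and nerve. Laminin, a trimer of an α, a β and a γ chain, and collagen IV, a trimer of α chains, each form a network, and nidogen joins both networks. The laminin α chain sets which receptors a laminin binds. In the gut wall much of the collagen IV is made by stromal cells, whereas the epithelium also makes laminin.

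Cells came from colon tumors of mice that had received azoxymethane (AOM), a carcinogen, and dextran sulfate sodium (DSS), which causes colitis, per the study's methods. All mice carried a *Zeb1* gene that Cre can delete. The 3 Fib-ΔZeb1 mice were positive for the Col6a1Cre transgene, which removes *Zeb1*, a transcription factor, from fibroblasts, and the 3 Fib-Ctrl mice were negative for it. The driver is constitutive, so that Cre was not switched on at a chosen time, and in which of the sorted cells it was active was not measured here. Cells negative for EPCAM, CD45 and CD31, the surface proteins of epithelial, immune and endothelial cells, were sorted into the wells of 1 plate of 384 wells per mouse, so that mouse and plate cannot be told apart. SORT-seq counts the 3′ ends of mRNA with molecular barcodes, and levels are given as CPM, a gene's transcripts scaled to a common total of all transcripts counted, over the wells of 1 cell type of 1 mouse. These are not divided by gene length, so a level is compared between cell types or mice and not between genes. A lower sum can mean fewer transcripts per cell or fewer cells with them.

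Of 2304 wells, 1233 passed the filters and were gated, with at least 3 transcribed marker genes needed for a type. Telocyte-like fibroblasts, the cells that lie against the crypt epithelium and make Wnt and Bmp ligands, were 174 wells. The other fibroblasts were 397 wells, of which 250 were iCAF-like (inflammatory cancer-associated fibroblasts) and 147 matched no subtype. Pericyte-like cells, which wrap small vessels, were 77 wells. *Foxl1* was at 30.1 to 65.2 CPM per mouse in telocyte-like and at 0 to 22.0 CPM in other fibroblasts. *Rgs5*, a pericyte gene, was at 1311 to 2823 CPM in pericyte-like cells. Both are gate markers, so the gate itself favors these levels. Telocyte markers held out of the gate summed to 3270 to 10889 CPM in telocyte-like and 573 to 2129 CPM in other fibroblasts. Held-out pericyte markers summed to 5272 to 8075 CPM in pericyte-like cells, 670 to 3680 CPM in telocyte-like and 154 to 465 CPM in other fibroblasts. Despite the CD45 gate, 452 wells were immune, 86.0% of the kept wells of Fib-Ctrl mouse 2 and 66.1% of those of Fib-ΔZeb1 mouse 3 against 8.41% to 28.4% elsewhere. These mice gave 10 and 9 telocyte-like wells, so results are also given without them where that changes a call. Only 4 pericyte-like wells were found in each of Fib-Ctrl mouse 2, Fib-ΔZeb1 mouse 2 and Fib-ΔZeb1 mouse 3, and pericyte comparisons were therefore fitted on the other 3 mice, with the fit over all 6 as a second reading. Plates held 1575726 to 3699058 transcripts without spike-in RNA. *Zeb1* was at 108, 99.9 and 87.5 CPM in the stromal wells of Fib-Ctrl mice 1, 2 and 3 and at 53.7, 65.8 and 53.9 CPM in those of Fib-ΔZeb1 mice 1, 2 and 3, with no overlap. Where the counted 3′ ends lie relative to the deleted part was not examined.

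The collagen IV genes lie in pairs whose members face away from each other. *Col4a1* (chr8:11198423-11312826, minus strand) and *Col4a2* (chr8:11312805-11449287, plus strand) start 21 bases apart on GRCm38 and overlap by 22 bases. *Col4a5* (chrX:141475385-141689234, plus strand) and *Col4a6* (chrX:141165403-141474076, minus strand) start 1309 bases apart. The laminin genes are *Lama2* (chr10:26980036-27619758, minus), *Lama4* (chr10:38965515-39110188, plus), *Lama5* (chr2:180176373-180225859, minus), *Lamb1* (chr12:31265234-31329644, plus) and *Lamc1* (chr1:153218922-153332786, minus). *Nid1* lies at chr13:13437551-13512269 on the plus strand.

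Sequences upstream of the start in the RefSeq promoter table are shown for 4 members that differ in how their levels split the fibroblasts, 3 of them higher in telocyte-like fibroblasts and *Lama2*, which was not. They are from RefSeq (GRCm38.p6), written in the direction of transcription, with annotated exon bases left out. For *Lama2* this start lies inside the gene span given above, so that its stretch is not upstream of that span. The table held 8 of the 10 members, without *Lama4* and *Lamc1*. Capitals mark matches on either strand to CACCTG, the E-box that ZEB proteins bind, to GGGCGG, the GC box, and to CCAAT.
Lama5 (chr2:180225860-180226109, minus): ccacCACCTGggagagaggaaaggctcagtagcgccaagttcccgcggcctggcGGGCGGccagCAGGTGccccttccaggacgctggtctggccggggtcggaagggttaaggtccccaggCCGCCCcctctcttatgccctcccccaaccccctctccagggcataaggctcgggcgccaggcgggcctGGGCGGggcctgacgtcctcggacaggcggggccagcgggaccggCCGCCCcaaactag
Lamb1 (chr12:31265043-31265233, plus): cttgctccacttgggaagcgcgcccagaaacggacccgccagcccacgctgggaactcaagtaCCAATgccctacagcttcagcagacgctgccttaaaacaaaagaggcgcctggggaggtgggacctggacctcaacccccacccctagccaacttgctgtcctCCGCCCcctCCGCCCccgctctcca
Col4a5 (chrX:141475169-141475384, plus): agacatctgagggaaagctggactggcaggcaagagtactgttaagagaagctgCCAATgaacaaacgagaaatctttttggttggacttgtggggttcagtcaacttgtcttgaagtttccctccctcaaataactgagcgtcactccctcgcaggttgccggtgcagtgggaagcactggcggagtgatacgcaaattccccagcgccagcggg
Lama2 (chr10:27616943-27617192, minus): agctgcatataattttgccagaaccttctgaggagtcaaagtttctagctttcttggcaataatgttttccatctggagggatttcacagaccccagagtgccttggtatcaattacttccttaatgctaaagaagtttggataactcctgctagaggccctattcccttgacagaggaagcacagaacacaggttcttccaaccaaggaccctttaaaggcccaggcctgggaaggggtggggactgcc
The *Lama5* stretch is 72.4% G and C and holds 2 E-boxes and 4 GC boxes. *Lamb1* has 2 GC boxes and 1 CCAAT, *Col4a5* has 1 CCAAT in the stretch shown and *Lama2* has none of these letters. In its full 250 bases *Col4a5* also has 1 GC box, which does not lie wholly in the stretch shown. Among the 8 members, the E-box letters were found only upstream of *Lama5*. Over 32851 promoters, 17.2% held CACCTG, 32.7% GGGCGG and 33.8% CCAAT in the 250 bases before the start. These matches are a description of letters, and binding was not measured.

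*Lama5*, the α5 chain typical of laminin beneath epithelium, differed most between the fibroblasts. In telocyte-like fibroblasts it was at 263, 388 and 322 CPM in Fib-Ctrl mice 1, 2 and 3 and at 190, 141 and 475 CPM in Fib-ΔZeb1 mice 1, 2 and 3. In other fibroblasts it was at 6.3, 0 and 137 CPM in Fib-Ctrl mice 1, 2 and 3, then 8.3, 5.6 and 66.0 CPM in the Fib-ΔZeb1 mice. Every telocyte-like value lay above every value of the other fibroblasts. The iCAF-like wells were at 0 to 24.0 CPM, on 11 counts in all, and the higher values of the other fibroblasts came from wells without a subtype, at 414 CPM in Fib-Ctrl mouse 3 and 364 CPM in Fib-ΔZeb1 mouse 3. The difference was 12.8-fold (log2 fold change 3.68 ± 0.47 SE, adjusted p = 0.000123, edgeR's quasi-likelihood test with the mouse as a block). Of all genes tested other than gate markers, 6.39% were called higher and 6.84% lower in telocyte-like than in other fibroblasts.

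Epithelial cells carry *Lama5* as well, at a median of 494 CPM in the 70 wells gated as epithelial. Summed transcripts of 10 epithelial markers were at 95.1 to 764 CPM in telocyte-like fibroblasts, with all 10 detected, and at 40.8 to 561 CPM in other fibroblasts. When wells with any such transcript were left out, *Lama5* was at 226 CPM in the remaining 108 telocyte-like wells and at 5.45 CPM in the remaining 253 wells of other fibroblasts. In this alternative, added after the levels were seen and fitted on 3 mice, the log2 fold change was 5.09. Without the plates with mostly immune wells it was 3.64.

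Telocyte-like wells held more counted transcripts, at a median of 15340 against 11532 in iCAF-like wells and 4762 in those without a subtype. A subtype needed at least 3 detected markers, so wells with few transcripts could miss one. Because of these depths, shares of wells were compared after thinning each well to 2000 barcodes. Wells with fewer barcodes were left out. These were 46 of 147 wells without a subtype, 5 of 250 iCAF-like, 7 of 70 epithelial and 297 of 452 immune wells. The types gated before thinning were kept, so thinning does not undo the effect of depth on the gate. A *Lama5* barcode was then found in 58 of 174 telocyte-like wells (33.3%), in 1 of 245 iCAF-like wells (0.408%), in 2 of 101 without a subtype and in 15 of 77 pericyte-like wells (19.5%). Immune wells, which should lack the gene, had it in 2 of 155 (1.29%), so the iCAF-like share is at background. Unthinned, the shares were 61.5% in telocyte-like, 49.4% in pericyte-like and 4.0% in iCAF-like wells, and 12.2% in those without a subtype. Epithelial wells had *Lama5* in 41.3% after thinning and in 74.3% before. The thinned counts gave a log2 fold change of 3.63 for telocyte-like against other fibroblasts.

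*Lama2* and *Lama4*, the other α chains among the members, were not called. *Lama2*, the α2 chain known from muscle, had a median of 240 CPM (202 to 301) there and of 351 CPM (196 to 411) in other fibroblasts. *Lama4*, the α4 chain known from vessel walls, had medians of 377 and 421 CPM. Their log2 fold changes were -0.50 ± 0.20 (edgeR adjusted p = 0.133) and -0.30 ± 0.19 (adjusted p = 0.392). With wells carrying epithelial transcripts left out, in a fit on 3 mice, *Lama2* was lower in telocyte-like fibroblasts (log2 fold change -0.96, edgeR adjusted p = 0.00835). *Lama4* turned to 0.08 when only the mitochondrial genes named mt- were counted in the filter.

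*Lamb1*, the β1 chain that pairs with any of these α chains, was at 1405, 1534 and 1055 CPM in the telocyte-like fibroblasts of Fib-Ctrl mice 1, 2 and 3 and at 1186, 848 and 1089 CPM in those of Fib-ΔZeb1 mice 1, 2 and 3. In other fibroblasts it was at 744, 543 and 791 CPM and at 674, 224 and 242.2 CPM in the same order, again without overlap. The 2.21-fold difference passed the test (log2 fold change 1.14 ± 0.23, edgeR adjusted p = 0.00322), but the call was lost without wells carrying epithelial transcripts (0.65, adjusted p = 0.132). That fit also held 3 mice rather than 6, so the loss of wells and the loss of mice cannot be told apart. *Lamc1*, the γ1 chain, was nearly level, with a median of 791 CPM against 683 CPM and a log2 fold change of 0.10 ± 0.17 (adjusted p = 0.807).

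*Col4a1*, which encodes the most widespread collagen IV chain together with *Col4a2*, was at 2503, 3891 and 2174 CPM in the telocyte-like fibroblasts of Fib-Ctrl mice 1, 2 and 3 and at 2200, 1728 and 1860 CPM in those of Fib-ΔZeb1 mice 1, 2 and 3. In other fibroblasts the values were 953, 687 and 1786 CPM and 1340, 589 and 1314 CPM. The groups overlapped only at Fib-Ctrl mouse 3 among the other fibroblasts, and each mouse had the higher level in its telocyte-like wells. *Col4a1* was 2.06-fold higher (log2 fold change 1.04 ± 0.24, edgeR adjusted p = 0.0097) and *Col4a2* 1.85-fold higher (0.88 ± 0.21, adjusted p = 0.0108).

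*Col4a5*, whose chain is found in fewer basement membranes, was 2.53-fold higher (log2 fold change 1.34 ± 0.35, edgeR adjusted p = 0.0173) at low levels, with a median of 62.2 CPM against 13.8 CPM on 126 and 75 counts. *Col4a6*, its neighbor on the X chromosome, had 49 and 31 counts and was not called (1.13 ± 0.76, adjusted p = 0.425). *Nid1*, the linker, had a median of 777 CPM against 565 CPM and was not called (0.30 ± 0.20, adjusted p = 0.419). In all, 5 of 10 members were higher and 0 lower in telocyte-like than in other fibroblasts, with a median log2 fold change over the members of 0.96 against 0.01 over all genes tested. The count rests in part on single mice. Without Fib-Ctrl mouse 1, only *Lama5* and *Lamb1* remained, with adjusted p of 0.0559 for *Col4a1*, 0.0525 for *Col4a2* and 0.0844 for *Col4a5* in edgeR. Without the plates with mostly immune wells, *Col4a2* and *Col4a5* were lost. Both were also lost without wells carrying epithelial transcripts, in a fit on 3 mice (edgeR adjusted p = 0.0914 and 0.239). *Col4a5* was at 33.3 CPM in telocyte-like wells without and at 65.4 CPM in those with such transcripts.

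**Figure D1:**
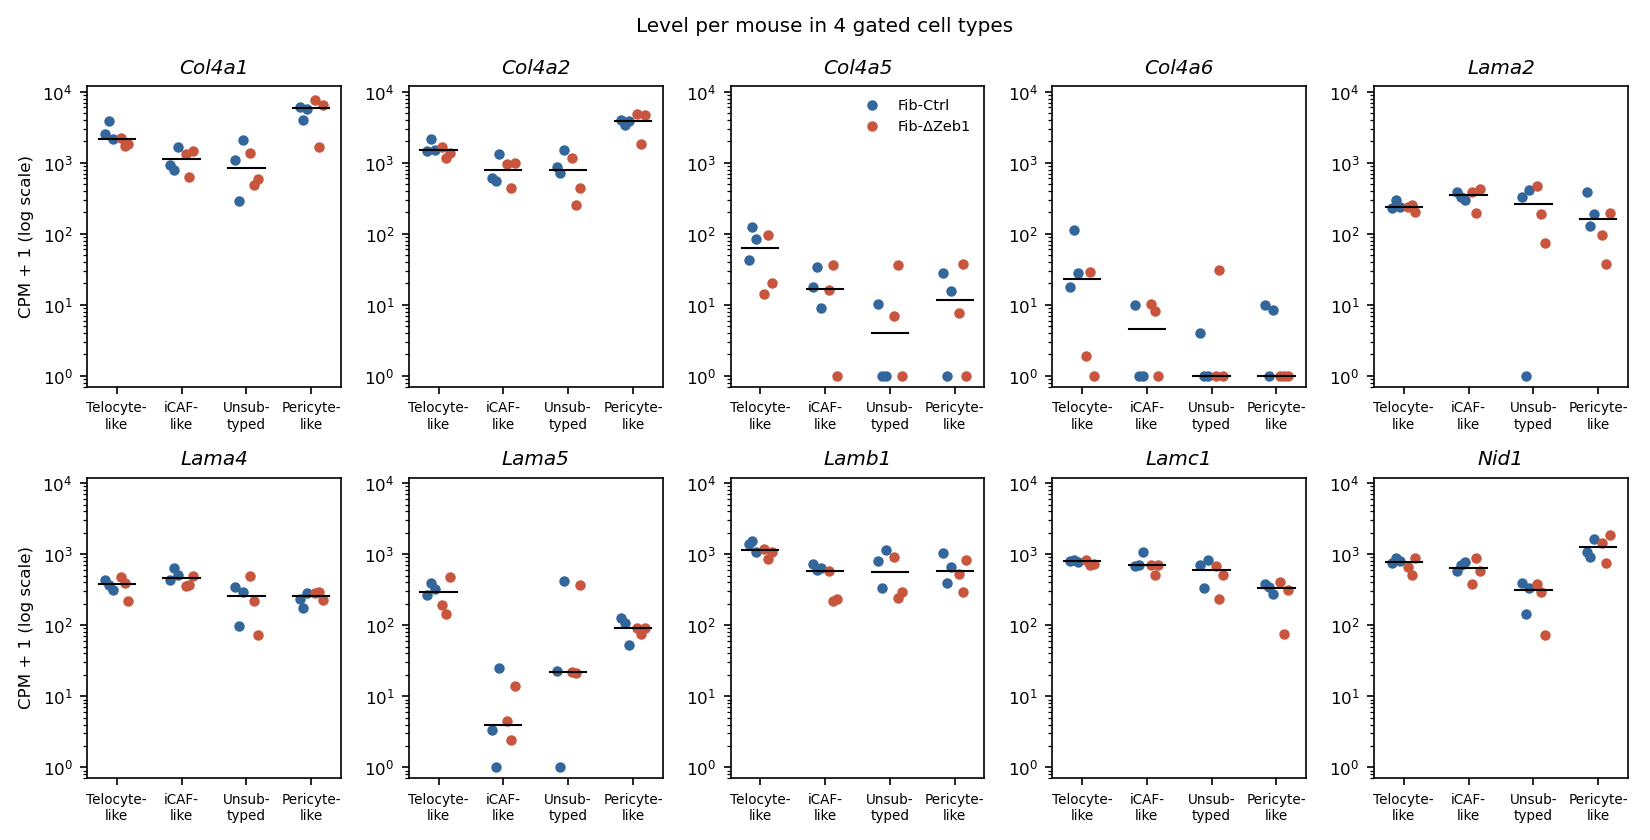
Level of each member (CPM + 1, log scale) in 4 gated cell types, with 1 point per mouse and the color giving the genotype. *Lama5* sits at 141 to 475 CPM in telocyte-like wells and at 0 to 24.0 CPM in iCAF-like wells, while *Col4a1* is highest in pericyte-like wells, with a median of 5893 CPM.

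Pericyte-like cells held the highest *Col4a1* and *Col4a2* levels of the gated types, while *Col4a5* and *Col4a6* had only 10 and 2 counts there. *Col4a1* was at 6032, 4031 and 5753 CPM in Fib-Ctrl mice 1, 2 and 3 and at 7625, 1635 and 6526 CPM in Fib-ΔZeb1 mice 1, 2 and 3, where the lowest value rests on 4 wells. *Col4a2* followed, at 1823 to 4785 CPM with a median of 3913 CPM. Against other fibroblasts of the same 3 mice, *Col4a1* was 4.23-fold higher (log2 fold change 2.08 ± 0.34, edgeR adjusted p = 4.03e-06) and *Col4a2* 3.72-fold higher (1.89 ± 0.33, adjusted p = 1.16e-05). *Nid1* was also higher (log2 fold change 1.20 ± 0.30, adjusted p = 0.00236), at 741 to 1879 CPM over the 6 mice against 381 to 759 CPM.

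Of 5 laminin chains, 3 were lower and 1 was higher in pericyte-like cells. *Lamc1* was lower (log2 fold change -1.35 ± 0.30, edgeR adjusted p = 0.000589), as were *Lama2* (-1.19 ± 0.33, adjusted p = 0.00549) and *Lama4* (-0.84 ± 0.29, adjusted p = 0.0295). *Lamb1* was not called (-0.27 ± 0.29, adjusted p = 0.615). *Lama5*, at 51.2 to 127 CPM, was higher than in other fibroblasts in the fit (1.93 ± 0.53, adjusted p = 0.00489). This held in 2 of the 3 mice, whereas Fib-Ctrl mouse 3 had 51.2 CPM in pericyte-like cells against 137 CPM in other fibroblasts. Thus 4 of 8 tested members were higher and 3 lower, where 9.91% of all genes were called higher and 11.6% lower, and *Col4a5* and *Col4a6* were too low to test. Over all 6 mice, where 14.9% and 16.6% of genes were called, the same 7 members were called. Without Fib-ΔZeb1 mouse 1, which gave 40 of the 77 wells, 3 members were left, and the calls of *Lama2*, *Lama4*, *Lama5* and *Nid1* were lost. DESeq2 called 4 members, without *Lama2*, *Lama4* and *Lama5*.

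Pericytes share a basement membrane with the endothelium, and transcripts of some endothelial markers were counted, although no well was gated as endothelial. Of 8 endothelial markers 5 were detected in pericyte-like wells, at a sum of 148 to 407 CPM, while *Cdh5*, *Cldn5* and *Kdr* were at 0. In telocyte-like fibroblasts the sum was 0 to 42.2 CPM. Fibroblast markers summed to 5091 to 22398 CPM in pericyte-like wells against 45432 to 64219 CPM in other fibroblasts. Which cells these marker transcripts came from, and the part of other cells' RNA in the levels, was not tested.

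Set against pericyte-like cells directly, telocyte-like fibroblasts had less *Col4a1* and *Col4a2* and more of 3 laminin chains. *Col4a1* was at 0.379 of the pericyte level (log2 fold change -1.40 ± 0.24, edgeR adjusted p = 0.000156) and *Col4a2* was lower by a like amount (-1.36 ± 0.23, adjusted p = 0.000165). *Nid1* was lower too (-0.78 ± 0.24, adjusted p = 0.0314). *Lama5* was 2.92-fold higher (1.55 ± 0.31, adjusted p = 0.00109), *Lamc1* 2.44-fold (1.28 ± 0.25, adjusted p = 0.000702) and *Lamb1* 1.83-fold (0.87 ± 0.24, adjusted p = 0.0153). *Lama4* (0.69 ± 0.26, adjusted p = 0.09), *Lama2* (0.43 ± 0.32, adjusted p = 0.487) and *Col4a5* (1.43 ± 0.53, adjusted p = 0.0792) were not called, and *Col4a6* was too low to test. Thus 3 of 9 tested members were higher and 3 lower, where 8.21% of genes were called higher and 7.43% lower.

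Over all 6 mice, where 11.6% and 10.8% of genes were called, *Col4a5* (log2 fold change 1.84, edgeR adjusted p = 0.016) and *Lama4* (0.68, adjusted p = 0.0464) were added and *Nid1* was lost (-0.59, adjusted p = 0.0584). Thinning left 1824 genes to test instead of 8347, and a larger share of them was called. There 3 members were called, and *Lama5* had a log2 fold change of 1.08 (edgeR adjusted p = 0.114). *Lamb1* (0.74) and *Nid1* (-0.71) were lost as well.

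**Figure D2:**
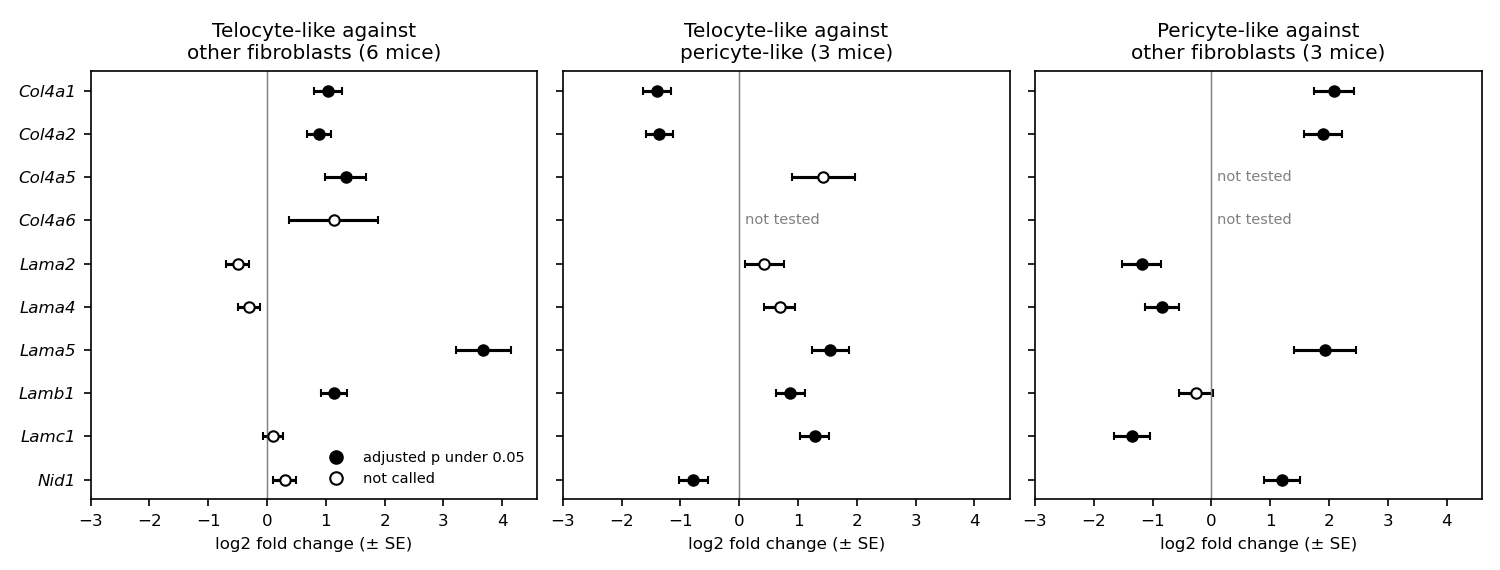
Log2 fold change (± SE) of each member in the 3 comparisons between cell types, with filled points for an adjusted p under 0.05. *Lama5* stands at 3.68 for telocyte-like against other fibroblasts, and *Col4a1* stands at 2.08 for pericyte-like cells against other fibroblasts and at -1.40 for telocyte-like against pericyte-like cells.

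The composition of the set differed along the same lines. Among counted transcripts of *Lama2*, *Lama4* and *Lama5*, *Lama5* made up a median of 32.4% in telocyte-like fibroblasts (18.2% to 52.9%), 17.9% in pericyte-like cells (9.72% to 26.3%) and 1.02% in other fibroblasts (0 to 14.9%). These are not shares of all laminin α chains. *Lama1*, which is no member, was left out and had 694 counts in telocyte-like fibroblasts, 163 in other fibroblasts and 5 in pericyte-like cells. The pericyte shares of the 3 mice with 4 wells rest on few transcripts, and the 26.3% is 5 of 19. The *Lama5* share was higher in telocyte-like than in other fibroblasts in 6 of 6 mice (exact two-sided paired permutation p = 0.03125, the smallest that 6 mice allow). *Lamc1* made up 40.3% of *Lamb1* and *Lamc1* in telocyte-like and 54.7% in other fibroblasts, also in the same direction in 6 of 6 mice. Over the 18 such tests made, each share with 6 of 6 mice in 1 direction had an adjusted p of 0.0938, and none passed the threshold.

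Collagen IV took 75.9% of the member transcripts in pericyte-like cells (69.7% to 81.4%), 51.7% in telocyte-like (47.4% to 59.3%) and 42.6% in other fibroblasts (33.6% to 49.2%). Pericyte-like cells were higher than the other fibroblasts and than the telocyte-like in 6 of 6 mice each (exact permutation p = 0.03125, adjusted p = 0.0938). The balance between *Col4a1* and *Col4a2*, which share a start region, moved little. *Col4a2* made up 40.7%, 42.1% and 40.9% of both in telocyte-like, other fibroblasts and pericyte-like cells, with exact permutation p from 0.156 to 0.906.

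**Figure D3:**
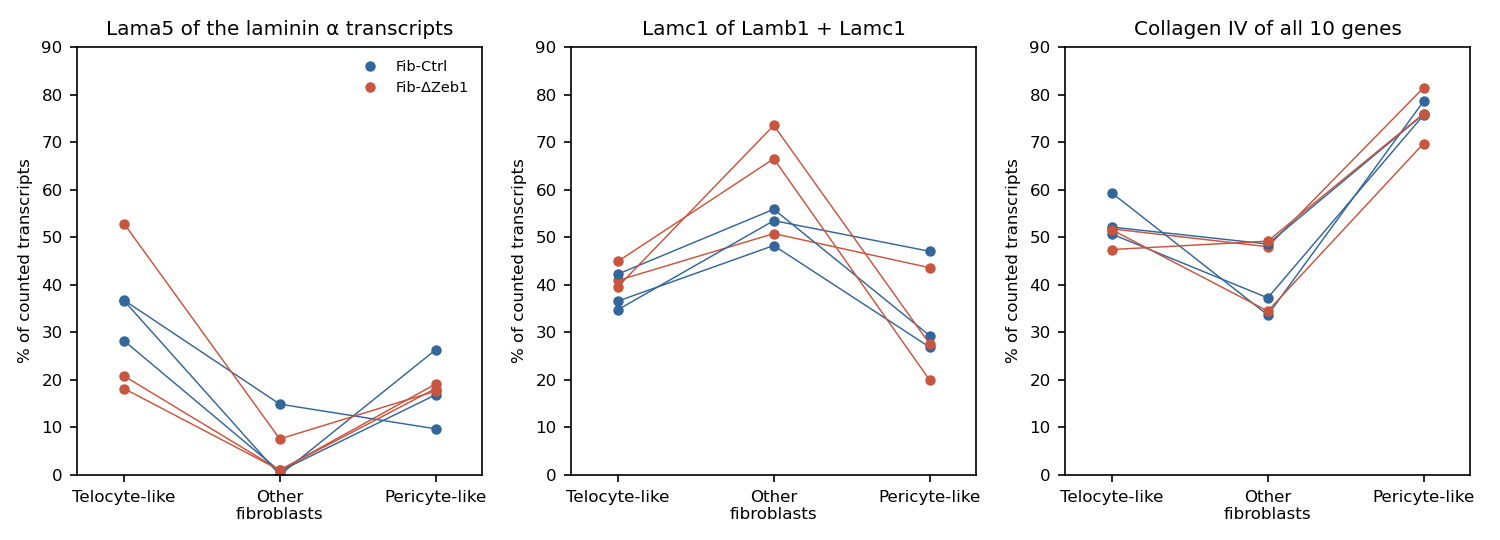
Share of counted transcripts per mouse in telocyte-like, other fibroblast and pericyte-like wells, with lines joining the types of 1 mouse. The share of *Lama5* among *Lama2*, *Lama4* and *Lama5* has its highest median, 32.4%, in telocyte-like wells. The share of collagen IV among all members is highest in pericyte-like wells, at 69.7% to 81.4%.

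Chains of 1 trimer were also counted together in single wells, at 2000 barcodes per well and without the wells that held fewer. *Lama5*, *Lamb1* and *Lamc1* were found together in 42 of 174 telocyte-like wells (24.1%) and in 6 of 77 pericyte-like wells (7.79%). Of 245 iCAF-like wells, 1 had any *Lama5* barcode and 0 had all 3 chains. By counting error alone this allows a share of up to 1.22% in the pooled wells. Of 101 wells without a subtype, 2 had *Lama5* and 0 had all 3, which in the same way allows up to 2.97%. The spread between mice is in neither limit. For these types the joint count repeats that of *Lama5*. The same count with *Lama4* gave 33.9% of telocyte-like and 22.9% of iCAF-like wells, and with *Lama2* 26.4% and 20.8%. *Col4a1* and *Col4a2* were together in 96.1% of pericyte-like, 82.8% of telocyte-like and 55.9% of iCAF-like wells, while immune wells had *Col4a1* in 12.3% and *Col4a2* in 14.2%. Wells of 1 mouse are not replicates, and these shares were not tested.

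The effect of *Zeb1* deletion was compared over the 3 mice of each genotype. No member was called in stromal cells, telocyte-like fibroblasts or other fibroblasts, nor in the test of whether the genotype difference varied between both fibroblast classes. In these 4 fits 0 genes passed, so that 0% of all genes were called in each. The numbers at an unadjusted p under 0.05 were 117, 193, 83 and 197 in edgeR, and DESeq2 called 1, 3 and 1 genes in the first 3. The pericyte-like cells gave enough wells in 2 Fib-Ctrl mice and 1 Fib-ΔZeb1 mouse. There 0.297% of genes and no member were called, but the genotype and that mouse cannot be told apart. A p that misses the threshold does not show that levels were equal.

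*Lamb1* was the only member whose stromal levels did not overlap between genotypes. The Fib-Ctrl mean was 963 ± 53.3 CPM and the Fib-ΔZeb1 mean 658 ± 275 CPM (SD, n = 3 each), with ranges of 931 to 1024 and 342 to 841 CPM. The exact two-sided permutation p was 0.1, the smallest that 3 mice against 3 can give, and 6% of all genes were separated in this way. The edgeR log2 fold change of *Lamb1* was -0.54 ± 0.32 (adjusted p = 0.9997) in stromal cells, -0.31 ± 0.22 in telocyte-like and -0.87 ± 0.41 in other fibroblasts. Sums over all fibroblasts did not overlap either, but the *Lamb1* levels of the genotypes overlapped within each type. They were at 1055 to 1534 against 848 to 1186 CPM in telocyte-like and at 543 to 791 against 224 to 674 CPM in other fibroblasts. In pericyte-like cells they were at 386 to 1037 against 296 to 832 CPM. The shares of the stromal types differed between mice, with telocyte-like wells at 11.2% to 55.7% of the stromal wells.

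The collagen IV genes showed no separation. Stromal *Col4a1* had a log2 fold change of -0.12 ± 0.43 and *Col4a2* of -0.04 ± 0.43, with a sign that changed when single mice were left out. *Col4a5* had a Fib-Ctrl mean of 49.9 ± 25.0 CPM (SD, n = 3) against 22.6 ± 20.8 CPM with the deletion (exact permutation p = 0.2). *Col4a6* was at 28.1 ± 24.7 and 6.0 ± 7.88 CPM (exact permutation p = 0.2). For *Lama5* the genotypes were at 177 ± 85.5 and 135 ± 127 CPM (exact permutation p = 0.8). *Nid1* had a log2 fold change of 0.08 ± 0.22, *Lamc1* of -0.24 ± 0.21, *Lama2* of -0.21 ± 0.24 and *Lama4* of -0.12 ± 0.24. In telocyte-like fibroblasts the log2 fold changes of the 9 tested members lay between -1.11 for *Col4a5* and 0.03 for *Lama4*. In other fibroblasts those of the 7 tested lay between -0.87 for *Lamb1* and -0.04 for *Lama2*. Within the telocyte-like fibroblasts the value of *Col4a1* was -0.52 ± 0.25 (edgeR adjusted p = 0.9999), which includes the high value of Fib-Ctrl mouse 2.

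**Figure D4:**
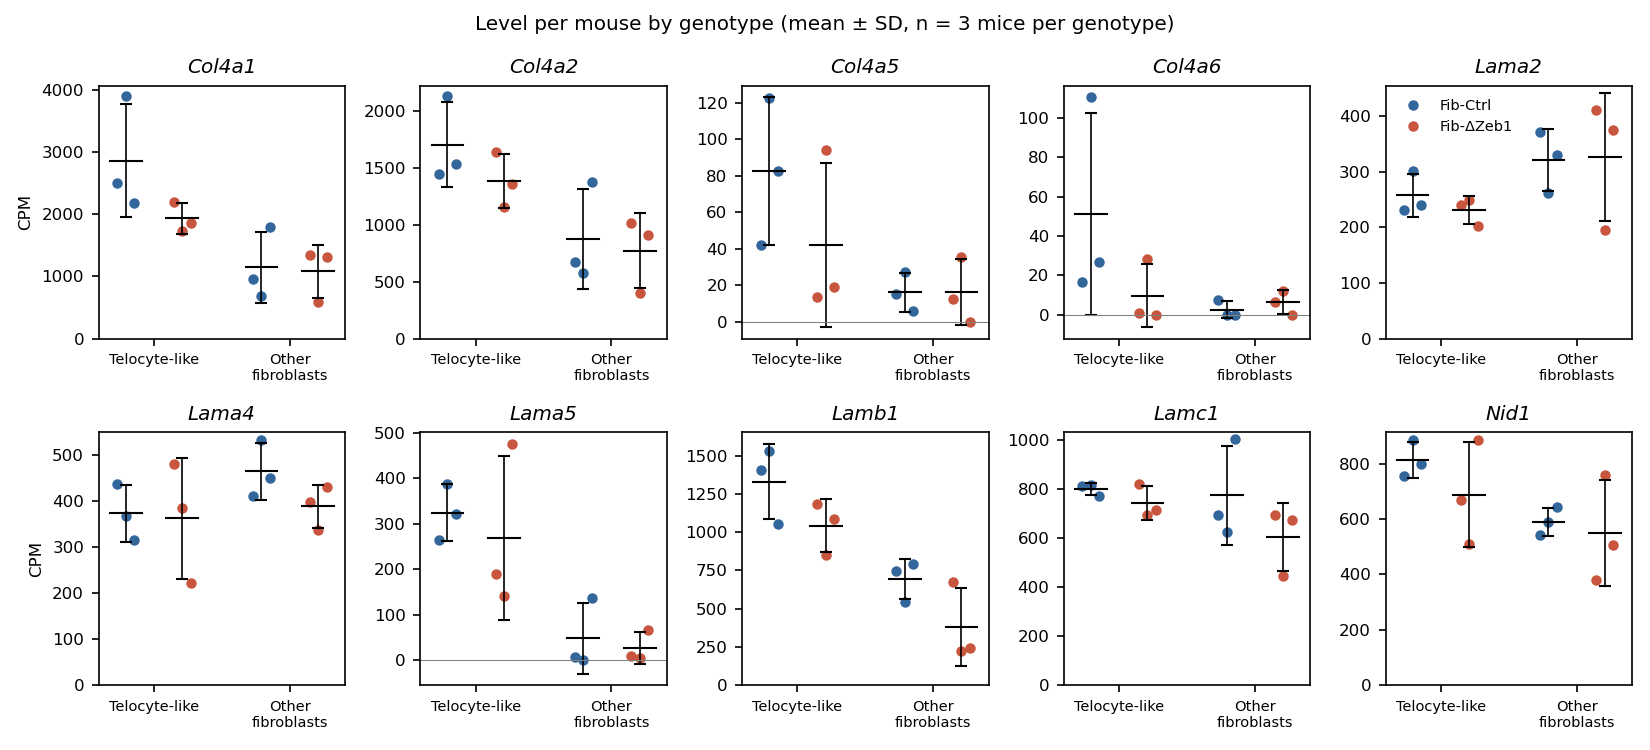
Level of each member (CPM) per mouse in telocyte-like and other fibroblasts by genotype, with bars for the mean ± SD of 3 mice. *Lama5* is above 140 CPM in telocyte-like wells of all 6 mice, and *Lamb1* of the other fibroblasts lies at 543 to 791 CPM in Fib-Ctrl and at 224 to 674 CPM in Fib-ΔZeb1 mice.

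Other basement membrane genes of a fixed list of 22 differed between the same types. In telocyte-like against other fibroblasts, 5 of 13 tested genes were higher, 2 lower and 6 not called, with a median log2 fold change of 0.17 against 0.01 over all genes. *Lama1*, a further laminin α chain, was higher by 2.39 on the log2 scale, at 169 to 279 CPM against 15.6 to 108 CPM. *Col18a1*, a basement membrane collagen with heparan sulfate, was higher by 2.17 and *Smoc1*, a matricellular protein, by 2.25, as was *Tinagl1* by 1.54, while *Lamb2*, the β2 chain, had -1.44 and *Fbln2*, an elastic-fiber-associated protein, -1.81. *Nid2*, the second nidogen, was among the higher genes (1.41).

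In pericyte-like cells against other fibroblasts 6 of 12 tested genes of this list were higher and 3 lower. *Egflam*, known as pikachurin, was higher by 5.73 on the log2 scale, at 139 to 445 CPM against 0 to 14.5 CPM. *Lamc3*, a laminin γ chain, was called on 19 counts in pericyte-like cells and 10 in other fibroblasts. *Tinagl1* was higher by 4.78, *Nid2* by 2.4 and *Agrn*, the proteoglycan agrin, by 2.33. *Lama1* (-3.62) and *Fbln2* (-6.40) were lower, with *Fbln2* at 7 counts over the 6 pericyte sums. In telocyte-like against pericyte-like cells 5 of 14 were higher and 5 lower, among them *Fbln2* (5.25), *Egflam* (-5.99) and *Tinagl1* (-3.27). *Smoc2* had no count in pericyte-like cells, *Smoc1* had 1 and *Lama1* had 5, so their fold changes depend on the smallest counts.

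Receptors of laminin and collagen were on a list of 12. *Itga1*, the integrin α1 chain that binds collagen IV, was higher in telocyte-like than in other fibroblasts (log2 fold change 2.75) and higher still in pericyte-like cells against the same fibroblasts (4.82), with medians of 104, 10.2 and 391 CPM. *Itgb1* (0.69) and *Itga9* (1.15) were higher in telocyte-like fibroblasts as well, making 3 of 7 tested genes. In pericyte-like cells *Itga7*, a laminin-binding integrin chain (4.36), and *Bcam*, a receptor of the laminin α5 chain (2.79), were the other 2 of the 3 higher genes among 8 tested. Both were lower in telocyte-like than in pericyte-like cells (-4.72 and -2.60).

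Among genes of chain assembly and cross-linking, *Pxdn*, the peroxidase that cross-links collagen IV, was higher in telocyte-like (1.70) and in pericyte-like cells (1.12) than in other fibroblasts. *Loxl2* was higher in telocyte-like fibroblasts (0.98), so that 2 of 10 tested genes were called there, and *Plod2*, a lysyl hydroxylase, was lower in pericyte-like cells (-3.01). Of 6 genes of degradation, *Mmp10* (7.14) and *Mmp9* (2.93), a protease that cuts collagen IV, were higher and *Adamts1* (-1.53) lower in telocyte-like than in other fibroblasts. *Mmp10* varied widely, at 148 to 4333 CPM in telocyte-like fibroblasts. No gene of any of these lists was called for genotype in the 4 fits over 3 mice per genotype.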

How the data were processed

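Transcriptomes of cells sorted from AOM/DSS tumors were measured by SORT-seq in 3 Fib-Ctrl and 3 Fib-ΔZeb1 mice, grouped by the genotype in the labels. The authors aligned reads to the GRCm38 transcriptome with BWA, and the submitters' notes also name Cell Ranger 2.1.1. Each deposited table of counts lists genes by wells, 1 with whole counts of molecular barcodes and 1 with transcript counts. The latter are estimated counts, which the authors derived from the former after allowing for separate molecules that happen to carry the same barcode. The values are not normalized, and every well is listed.

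Transcript counts were used here without spike-in RNA (7.85% to 18.6% of a plate). Wells with 100 to 6000 genes and under 10% transcripts from the mitochondrial chromosome were kept and gated by the marker list with the largest share of its genes detected. No doublet caller was run, since a well was meant to hold 1 cell. No 2 wells held identical values. The 384 well names are shared by all plates by design. The files of Fib-ΔZeb1 mouse 3 name another flow cell than the rest.

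Counts were summed per mouse and type (at least 5 wells), rounded and fitted over all genes with the quasi-likelihood test of edgeR 4.0.16 (limma 3.58.1, R 4.3.3), with TMM scaling, low genes removed by filterByExpr and a threshold of 0.05 on Benjamini-Hochberg adjusted p. Types were compared with the mouse as a block, because sums of both types came from the same mouse, and genotypes without one. An SE is the size of the log2 fold change divided by the root of its F statistic. Telocyte-like fibroblast sums held 158349 to 1128751, other fibroblast sums 90884 to 1578912 and pericyte-like sums 26990 to 591271 transcripts. DESeq2 1.42.0, other scaling, filters, gates, barcode counts, thinning and left-out mice were alternatives. Percentages of genes called leave out the gate markers. The fits of telocyte-like against other fibroblasts and of genotype in stromal cells were also run on simulated counts. These had the same spread for every gene and no difference between mice beyond depth, so they do not measure how the fits do on these data. No pericyte fit was simulated. Single values were compared by exact permutation tests (scipy 1.17.1). Permutation p-values measure the spread between these mice. Those of edgeR also draw on a spread shared across all genes tested, the more so where few sums are left over after the fit. The residual degrees of freedom were 5 for telocyte-like against other fibroblasts and 2 for both pericyte comparisons. They were 4 for the genotype fits over 6 mice and 1 for genotype in pericyte-like cells.

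Members were to be named in every comparison, and from lists of other basement membrane, receptor, assembly and degradation genes at most the 6 called genes with the largest change per list and comparison. Not every gene that this rule allows is given with its value. *Nid2* in telocyte-like against other fibroblasts was named beyond this rule after its value was seen. *Colgalt1*, on the assembly list, was not analysed here. Members, lists and gates were chosen with earlier results of these data known. For *Col4a1*, *Col4a5*, *Lama2*, *Lama4*, *Lama5* and *Nid1* the 3 genes with the most similar levels over 29 sums are named. Intervals and limits of a count of 0 (3 counts) cover counting error only.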

Additional observations from a re-analysis of the deposited data

Results flagged for a closer look

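In each of both fibroblast classes the highest or lowest of the 6 mice was compared with its nearest neighbor for all 10 members, 20 groups in all, of which chance flags about 1 in 20. Fib-Ctrl mouse 2 stood apart in telocyte-like fibroblasts with *Col4a1* at 3891 CPM, where the nearest mouse was at 2503 CPM, and with *Col4a6* at 111 CPM, where the nearest was at 28.2 CPM. Its sum holds 10 wells, and 86.0% of the kept wells of its plate were immune. Smooth muscle markers summed to 1594 CPM in these wells, against 56.8 to 374 CPM in the other 5 mice, and smooth muscle-like wells of single mice held *Col4a1* at 998 to 3589 CPM. The part of any of these in the levels was not tested.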

How the results depend on the processing

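*Lama5* stayed higher in telocyte-like than in other fibroblasts and kept its call under all 20 alternatives (log2 fold change 2.82 to 5.09). *Col4a1* and *Col4a2* stayed higher in pericyte-like cells than in other fibroblasts with their calls under all 16. The number of genes called was 1334 for telocyte-like against pericyte-like cells, 849 with DESeq2, 449 after thinning and 835 to 1095 with single mice left out, and members called were 6, 3 after thinning and 4 to 7. For telocyte-like against other fibroblasts 1028 genes were called, 270 after thinning and 537 to 1137 with single mice left out (lowest without Fib-Ctrl mouse 1, and 656 leaving out Fib-ΔZeb1 mouse 1). Members called, higher or lower, were 5, and 3 without the plates with mostly immune wells. They were also 3 without wells carrying epithelial transcripts. There *Lama2* was called lower, and of the 5 only *Lama5* and *Col4a1* kept their calls. With single mice left out, 2 to 6 members were called. For pericyte-like cells against other fibroblasts the counts were 1523 genes, 988 with DESeq2, 429 after thinning and 649 to 1421 with single mice left out, and 7 members, 4 with DESeq2 and 3 to 6 with single mice left out. Thinning leaves fewer counts to test. In the order given, genes tested fell from 8347 to 1824, from 7611 to 1438 and from 6950 to 1258. The called share of the tested genes was therefore larger after thinning, although fewer genes were called. For the other changes the cause was not tested.

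Genotype called 0 genes with every single mouse left out (lowest and highest 0), but 1 gene in stromal cells, 3 in telocyte-like and 1 in other fibroblasts with DESeq2, and 30 and 41 in the latter types with no filter on low genes. The 10 genes in pericyte-like cells fell to 1 with DESeq2 and to 0 with only genes named mt- counted as mitochondrial. Log2 fold changes that changed sign were all of values not called. Between types these were *Lama2* in telocyte-like against pericyte-like cells (-0.15 to 0.96 with single mice left out, lowest without Fib-ΔZeb1 mouse 1), and, in telocyte-like against other fibroblasts, *Lama4* with the mt- filter (0.078) and *Col4a6* without wells carrying epithelial transcripts (-0.024). For genotype in stromal cells, ranges with single mice left out crossed 0 for *Col4a1* (-0.44 to 0.25), *Col4a2* (-0.34 to 0.33), *Lama2* (-0.33 to 0.0042), *Lama4* (-0.25 to 0.032), *Lama5* (-1.34 to 0.020) and *Nid1* (-0.047 to 0.16). The sign also changed for *Lama4* with the mt- filter (0.027) and without the plates with mostly immune wells (0.042), and for *Nid1* without those plates (-0.042).

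Without the block for the mouse, 1164 genes and 5 members were called in telocyte-like against pericyte-like cells, 781 and 4 in telocyte-like against other fibroblasts and 1307 and 5 in pericyte-like cells against other fibroblasts. Between genotypes no paired analysis was possible because the replicate numbers only name the mice. With 77 pericyte-like wells in all, and 4 in each of 3 mice, *Col4a5* and *Col4a6* in these cells are limited by depth.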

Other observations

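Over 29 sums per mouse and gated type, which share plates and sequencing depth, the level of *Col4a1* followed most closely that of *Col4a2* (Pearson r = 0.98), *Lhfp* (0.97) and *Igfbp7* (0.96) among 7169 genes. *Nid1* was most like *Col4a1* (0.95), *Lhfp* (0.95) and *Col5a2* (0.95). *Lama4* was most like *Prkcdbp* (0.98), *Fkbp7* (0.96) and *Cd302* (0.95), and *Lama2* was most like *Fcgrt* (0.95), *Cebpd* (0.94) and *Nnmt* (0.94). *Lama5* had weaker neighbors, *Gpc1* (0.84), *Zfp579* (0.81) and *Tpm1* (0.80), as had *Col4a5* with *Smarcad1* (0.71), *Twist1* (0.71) and *Bahd1* (0.68). Of the 29 sums, 6 were immune and 3 epithelial, with *Col4a1* at 54.7 to 281 CPM and at 5.5 to 69.4 CPM. The correlations thus include the contrast of these sums with stromal ones, and its part in them was not tested. These correlations describe the sums and were not tested.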
